A study of Mus musculus with 8 samples.

Results

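MicroRNA host lncRNAs are long noncoding transcripts whose exons or introns hold microRNA hairpins. Every gene of the deposited tables that carries one of the names *Dnm3os*, *Mir100hg*, *Mir99ahg*, *Mir17hg*, *Mir22hg*, *Mir124a-1hg* or *Mir9-3hg* was taken, which gave 7 genes of 55487. They were measured in J-1 mouse embryonic stem cells, a male line of strain 129S4/SvJae, and in the same line differentiated toward heart muscle. Undifferentiated cells were the ESC stage (day 0), and mesoderm (MES, day 4), cardiac progenitors (CP, day 6) and cardiomyocytes (CM, day 10) came from embryoid bodies formed in hanging drops without ascorbic acid and then plated in a medium that held it. Each stage had 2 biological replicates, so there were 8 libraries from a single cell line. An embryoid body is an aggregate that holds several cell types. The data are from bulk RNA, so fewer cells of a type and less RNA per cell cannot be told apart.

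A microRNA is cut from its hairpin first in the nucleus, by Drosha with Dgcr8, and then in the cytoplasm by Dicer. The mature strand is loaded into an Argonaute protein and pairs with target mRNAs mainly through its seed, bases 2 to 8 from the 5′ end, so that microRNAs with the same seed share many targets. *Dnm3os* is the host of miR-199a and miR-214, known from mesenchymal tissue, and *Mir17hg* is the host of the miR-17-92 cluster, known from proliferating cells. *Mir22hg* carries miR-22, which is abundant in muscle, and *Mir124a-1hg* and *Mir9-3hg* carry a copy each of miR-124 and miR-9, which are microRNAs of neural cells. *Mir100hg* and *Mir99ahg* are paralogous hosts with the same order of hairpins, a member of the miR-99/100 family, a let-7 and a miR-125b.

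The libraries were made from rRNA-depleted long RNA, so the values below are levels of the host transcripts, and mature microRNAs were not measured. The mature sequences are shown because they tell which hosts carry the same seed. They are from RefSeq on GRCm38.p6, each written 5′ to 3′ with its seed in capitals, and the matures of *Dnm3os* come first.
mmu-miR-199a-5p: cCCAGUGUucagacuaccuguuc
mmu-miR-199a-3p: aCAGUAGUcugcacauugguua
mmu-miR-214-3p: aCAGCAGGcacagacaggcagu

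The paralogous hosts *Mir100hg* and *Mir99ahg* carry a pair of near-identical matures. Between mmu-miR-100-5p and mmu-miR-99a-5p, 21 of 22 bases were identical and the difference was A16U, counted from the 5′ end of mmu-miR-100-5p, outside the shared seed. Both hosts encode the same mmu-miR-125b-5p, and *Mir99ahg* encodes mmu-let-7c-5p where *Mir100hg* holds the hairpin of let-7a.
mmu-miR-100-5p: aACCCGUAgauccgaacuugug
mmu-miR-99a-5p: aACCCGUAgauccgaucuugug
mmu-miR-125b-5p: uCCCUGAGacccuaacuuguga
mmu-let-7c-5p: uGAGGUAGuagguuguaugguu

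*Mir17hg* holds 6 hairpins with 4 seeds among the matures shown. MiR-17-5p and miR-20a-5p share a seed and differ at C1U and C12U, and miR-19a-3p and miR-19b-3p share another and differ at U11C. The positions are counted from the 5′ end of miR-17-5p and of miR-19a-3p.
mmu-miR-17-5p: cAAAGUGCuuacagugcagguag
mmu-miR-20a-5p: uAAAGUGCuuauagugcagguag
mmu-miR-18a-5p: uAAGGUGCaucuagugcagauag
mmu-miR-19a-3p: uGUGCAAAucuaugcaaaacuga
mmu-miR-19b-3p: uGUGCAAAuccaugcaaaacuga
mmu-miR-92a-3p: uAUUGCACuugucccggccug

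The other sequences are the main matures of *Mir22hg* and *Mir9-3hg*. *Mir124a-1hg* carries the hairpins Mir124a-1 and Mir3078.
mmu-miR-22-3p: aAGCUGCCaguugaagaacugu
mmu-miR-9-5p: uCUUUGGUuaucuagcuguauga

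The hosts differ widely in how they hold their hairpins. *Dnm3os* (ENSMUSG00000078190) lies on chromosome 1 from 162217623 to 162225550 of GRCm38, antisense within *Dnm3*, and its exonic sequence covers all of its 7928 bases, with both hairpins in exons. *Mir17hg* (ENSMUSG00000089726, chromosome 14 from 115042879 to 115046727), *Mir22hg* (ENSMUSG00000085148, chromosome 11 from 75461539 to 75466676) and *Mir124a-1hg* (ENSMUSG00000097545, chromosome 14 from 64587331 to 64593961) are also short and have exonic hairpins. *Mir100hg* (ENSMUSG00000074415, chromosome 9 from 41327077 to 41716994) spans 389918 bases, of which 23898 are exonic, and *Mir99ahg* (ENSMUSG00000090386, chromosome 16 from 77236317 to 77773427) spans 537111 bases, of which 14303 are exonic. Both keep their hairpins in introns, as does *Mir9-3hg* (ENSMUSG00000097023, chromosome 7 from 79500026 to 79534403). All 7 lie on the forward strand.

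The total counts per library were 18046063 to 19728777. Marker sums differed between the stages, with the summed TPM (a level corrected for transcript length and library total) of 6 pluripotency genes at 2624 to 2653 at ESC and 45.8 to 167 later, and that of 6 cardiomyocyte genes at 9.75 to 10.9 at ESC and 723 to 1075 at CP. In CM the cardiomyocyte sum was 360.3 in replicate 1 and 869 in replicate 2, and markers of other cell types were present, among them 8 smooth muscle and fibroblast genes at 8618 to 12459 TPM in sum. Over genes, the mean chi-square between replicates was 33.2 at CM and 3.71 to 6.40 in the other stages. For the comparisons of stages, the counts of all 8 libraries entered edgeR's quasi-likelihood model, and a gene is called where its adjusted p over 20071 genes was under 0.05 and it differed by more than 2-fold. Since that model gives each gene a single spread over all stages, p-values for CM can be too small. All 7 hosts passed the filter on low counts, some of them through a single stage in which they are high.

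The hosts fell into 3 groups over the time course. *Dnm3os*, *Mir100hg* and *Mir99ahg* were at or near 0 in ESC and highest at CM, *Mir17hg* and *Mir22hg* were present at every stage and moved in opposite directions by far less, and *Mir124a-1hg* and *Mir9-3hg* were highest at ESC. From ESC to CM all 7 hosts were called, 4 higher and 3 lower, where 29.8% of all genes tested were called higher and 21.8% lower (51.6% in all). The plot of TPM by stage shows the levels in single libraries.

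**Figure D1:**
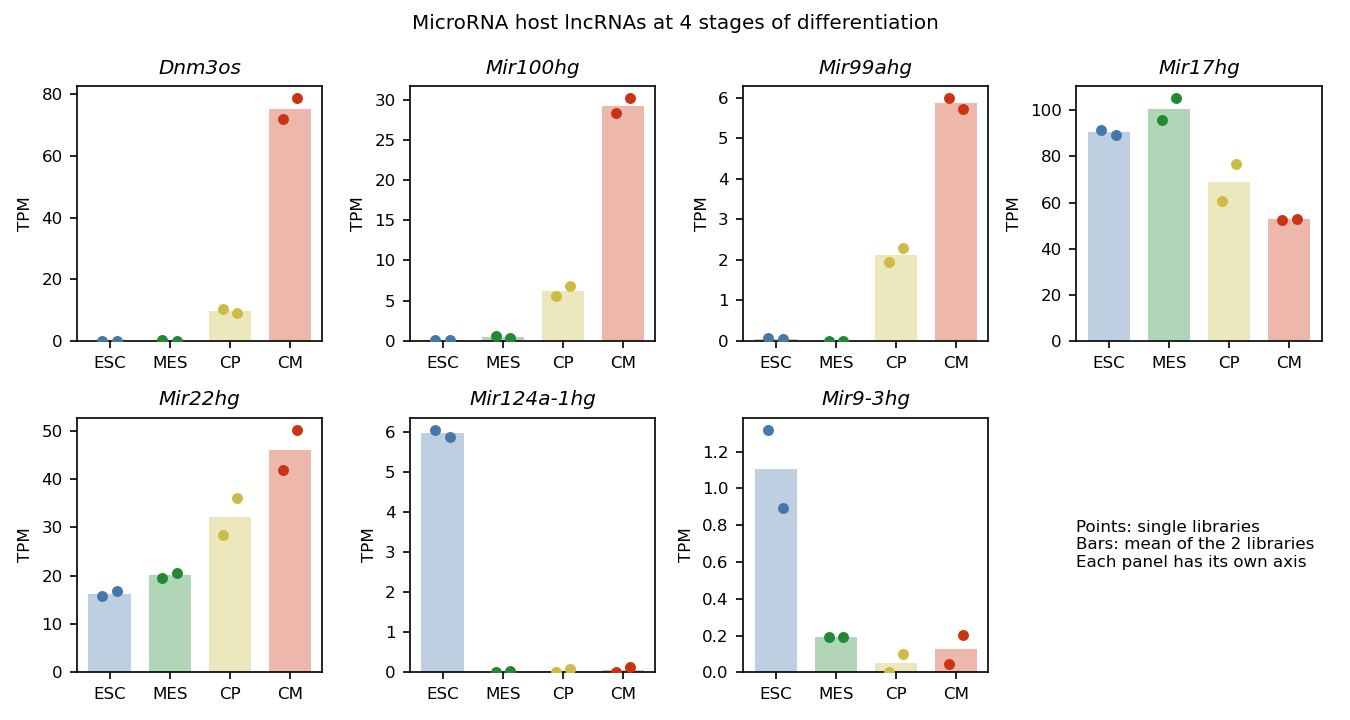
TPM of the 7 host lncRNAs (y axis, a separate scale in each panel) by stage (x axis), with a point for each library and a bar at the mean of the 2 libraries. *Dnm3os* stands at 71.8 and 78.7 TPM in CM against under 0.2 TPM in ESC and MES, and *Mir124a-1hg* at 6.07 and 5.88 TPM in ESC against at most 0.140 TPM later.

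*Dnm3os* showed the widest range of the 7. Its counts were 3 and 3 at ESC, 7 and 3 at MES, 391 and 328 at CP and 2814 and 2778 at CM. The levels were 0.0681 and 0.0704 TPM at ESC, 0.185 and 0.0788 at MES, 10.5 and 8.95 at CP and 71.8 and 78.7 at CM. The stages did not overlap from MES to CP or from CP to CM, while ESC and MES were both at a few reads. It rose 64.6-fold from MES to CP (log2 fold change 6.01, standard error 0.25, edgeR, adjusted p = 2.48e-06) and 7.36-fold from CP to CM (log2 2.88, standard error 0.14). From ESC to MES the log2 fold change was 0.70 (standard error 0.58, edgeR, adjusted p = 0.401), a difference not detectable at this depth. Among 9759 lncRNAs of the tables, it stood at rank 303 by mean TPM in CP and at rank 19 at CM.

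*Dnm3*, a dynamin gene on the opposite strand across the whole of *Dnm3os*, had 5 and 8 counts at ESC, 19 and 42 at MES, 128 and 176 at CP and 105 and 151 at CM. It rose 4.58-fold from MES to CP (edgeR, adjusted p = 0.00153), and from CP to CM its log2 fold change was -0.33 (edgeR, adjusted p = 0.509). Reads were counted by strand, so this is not the same signal. The next protein-coding gene after *Dnm3os*, the methyltransferase gene *Eef1aknmt* at a distance of 306577 bases, was at 10.8 to 18.3 TPM in every library and was not called at any step. *Dnm1*, the dynamin gene at the locus of a further miR-199 hairpin, Mir199b, had 128 and 143 counts at ESC, 32 and 49 at MES, 276 and 313 at CP and 812 and 839 at CM. It rose 6.68-fold from MES to CP and 2.65-fold from CP to CM (edgeR, adjusted p = 1.90e-05 and 0.000412). The strand of Mir199b was not compared with that of *Dnm1*, so these values are not taken as those of a host transcript.

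*Twist1*, a factor of mesenchyme known to act on the miR-199a and miR-214 locus in the mouse, had its rise at an earlier step. It was at 3.43 and 2.51 TPM at ESC, 25.4 and 29.6 at MES, 31.7 and 28.6 at CP and 17.1 and 31.7 at CM. At the step from ESC to MES it rose 7.94-fold (edgeR, adjusted p = 2.14e-05), and its log2 fold change from MES to CP, where *Dnm3os* rose, was -0.02 (edgeR, adjusted p = 0.967). *Twist2*, its paralogue, had 0 counts in both ESC libraries and was at 29.1 and 27.4 TPM at MES, at least 299.8-fold higher taking 3 counts over both ESC libraries as the floor.

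The promoter of *Dnm3os* (RefSeq, GRCm38.p6, chr1:162217373-162217672, forward strand, around the start of the transcript) is shown because it holds a copy of CATCTG, the E-box letters bound by Twist dimers, in capitals. The letters start at position -138 from the transcription start.
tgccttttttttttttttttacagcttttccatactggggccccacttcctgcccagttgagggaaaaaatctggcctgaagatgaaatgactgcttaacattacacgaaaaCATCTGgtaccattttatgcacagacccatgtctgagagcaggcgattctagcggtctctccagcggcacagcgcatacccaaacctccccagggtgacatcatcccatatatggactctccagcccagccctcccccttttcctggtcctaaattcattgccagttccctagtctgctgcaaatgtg
On either strand these letters occur in 17.2% of 32851 RefSeq promoters of the same length. A match of letters is a description and not a site.

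*Mir100hg* began to rise a step earlier than *Dnm3os*. It had 7 and 7 counts at ESC, 76 and 45 at MES, 622 and 748 at CP and 3341 and 3212 at CM. Its levels were 0.0527 and 0.0545 TPM at ESC, 0.666 and 0.392 at MES, 5.52 and 6.77 at CP and 28.3 and 30.2 at CM. No 2 stages overlapped, and the order was ESC, MES, CP, CM. The rises were 8.43-fold into MES, 10.4-fold into CP and 4.53-fold into CM (edgeR, adjusted p = 7.96e-05, 7.71e-06 and 5.95e-05). From ESC to MES, *Mir100hg* was the single host called higher and 3 were called lower, where 19.4% and 16% of all genes were (35.4% in all). Those called lower were *Mir99ahg*, *Mir124a-1hg* and *Mir9-3hg*, each of which passed the filter through stages other than MES.

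*Mir99ahg* had 5 and 3 counts at ESC, 0 and 0 at MES, 131 and 152 at CP and 424 and 365 at CM. Its levels were 0.0629 and 0.0390 TPM at ESC, 0 at MES, 1.94 and 2.30 at CP and 5.997 and 5.73 at CM. In MES it was therefore at 0 while its paralogue *Mir100hg* had 45 and 76 counts, and the stages did not overlap. It was called lower in MES than in ESC (edgeR, adjusted p = 0.00520), which rests on 8 counts against 0 and gives a bound of at least 2.55-fold lower, with a floor of 3 counts over the 2 MES libraries. Fitted on the ESC and MES libraries alone, it did not pass the filter and had no call, which left 3 hosts called at that step. By the same floor it was at least 90.5-fold higher in CP than in MES. It rose 2.64-fold from CP to CM (log2 fold change 1.40, standard error 0.21, edgeR, adjusted p = 0.00201).

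From MES to CP, 3 hosts were called higher and 0 lower, where 10.8% of all genes were called higher and 4.65% lower (15.4% in all), and these were *Dnm3os*, *Mir100hg* and *Mir99ahg*. From CP to CM the same 3 hosts were called higher and 0 lower, where 8.17% and 2.65% of all genes were (10.8% in all). Of 8 smooth muscle and fibroblast markers, *Twist1* among them, 4 were called higher and 0 lower from MES to CP, and 2 higher and 1 lower from CP to CM, where their median log2 fold change was -0.33. The sum of the list was at 64.8 to 68.4 TPM at ESC, 1252 to 1287 at MES, 7868 to 9180 at CP and 8618 to 12459 at CM. *Col3a1*, a fibrillar collagen, was at 530 and 743 TPM at CP and 1900.1 and 1409 at CM. *Col1a1*, another collagen, which made the largest part of the sum at CM, was at 2864 and 3421 TPM at CP and 8155 and 4539 at CM. *Acta2*, the smooth muscle actin, fell from 2857 and 3295 TPM at CP to 1398 and 1474 at CM, so the list did not move as a whole with the hosts over that step. The sum of 4 endoderm markers was at 1.68 to 1.95 TPM at ESC, 48.7 to 85.8 at MES, 304 to 502 at CP and 505 to 838 at CM, an increase at every step. From CP to CM 1 of these 4 was called higher and 0 lower, and their median log2 fold change was -0.17. *Afp* was at 28.2 and 54.1 TPM at CP and 255 and 463 at CM. *Ttr*, of the same list, was at 243 and 409 TPM at CP and 229 and 332 at CM. The endoderm list thus did not rise as a whole over that step. The part of such cells in the rise of the hosts was not tested.

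**Figure D2:**
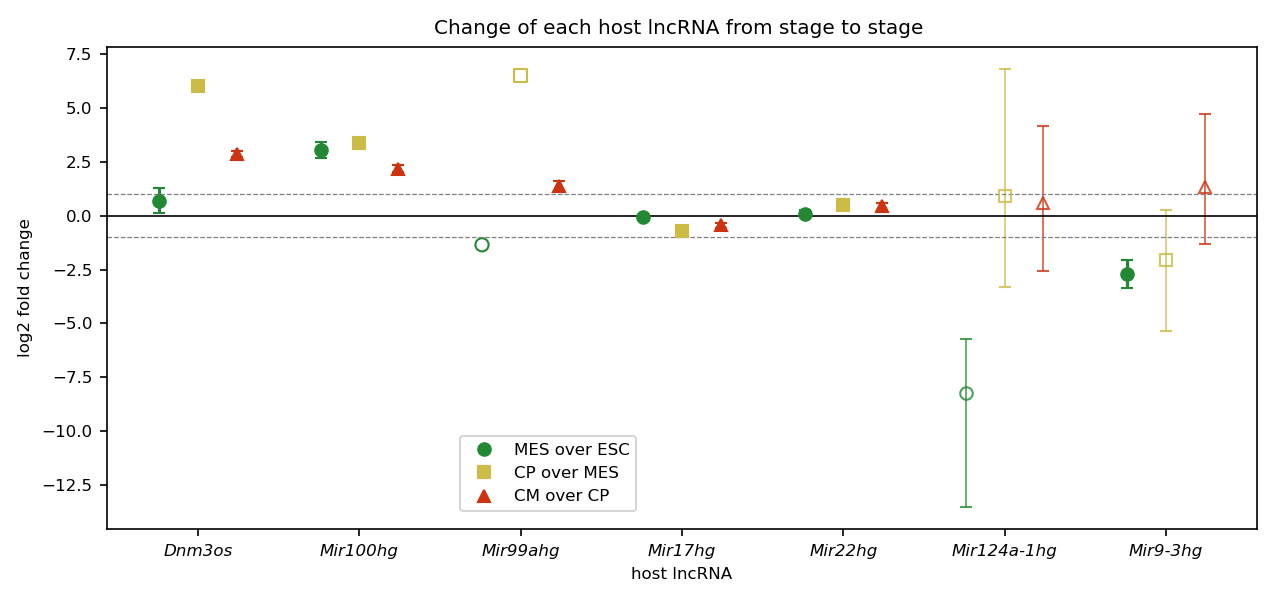
Log2 fold change of each host (y axis) at the steps ESC to MES, MES to CP and CP to CM (symbols), with dashed lines at the fold thresholds. Filled symbols are edgeR values with the standard error, open symbols with bars are ratios of counts per library total with a 95% counting interval where a stage had 1 to 3 counts, and open symbols without bars are bounds against 0 counts. *Dnm3os*, *Mir100hg* and *Mir99ahg* lie above the upper line at both later steps, and *Mir17hg* and *Mir22hg* lie between the lines at every step.

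The ratio of the paralogous hosts was higher in both CM libraries than in both CP libraries. Per transcript length, *Mir100hg* stood at 2.84 and 2.95 times *Mir99ahg* in the CP libraries and at 4.72 and 5.27 times in the CM libraries. The ratios of CP and CM did not overlap, and an exact permutation test of 2 against 2 libraries cannot give a p under 0.333. In ESC both were at a few reads and the ratios were 0.838 and 1.40. The matures that differ by A16U, shown above, are each encoded by a single one of these hosts, while mmu-miR-125b-5p is encoded by both. The ratio is of exonic reads, whereas the hairpins of both hosts lie in introns. At CM the hairpin rows, with few counts, stood the other way, Mir99a at 16 and 9 and Mir100 at 9 and 3. At CP they had 1 and 7 and 2 and 0 counts. The ratio of the host transcripts is thus no measure of the ratio of the precursors or matures.

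The tables also hold rows that lie in the introns of the paralogous hosts on their strand, and these moved with the hosts. Unspliced host transcript can give reads to such rows, so they are not a separate measure. Inside *Mir99ahg* there were 12 such rows, with 18 counts at ESC, 2 at MES, 369 at CP and 1019 at CM, summed over rows and libraries. Of these, 11 passed the filter, which they did through CP and CM, where they are high, so a count of calls against MES would not be informative. Like the exons of *Mir99ahg*, they were nearly silent at MES, where no row had more than 1 count. Inside *Mir100hg* the highest such row was *Gm28119*, with 0 and 1 counts at ESC, 5 and 4 at MES, 37 and 58 at CP and 251 and 210 at CM. It too passed the filter through CP and CM, so against MES only its counts are given. From CP to CM it rose 4.59-fold (edgeR, adjusted p = 0.000988).

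**Figure D3:**
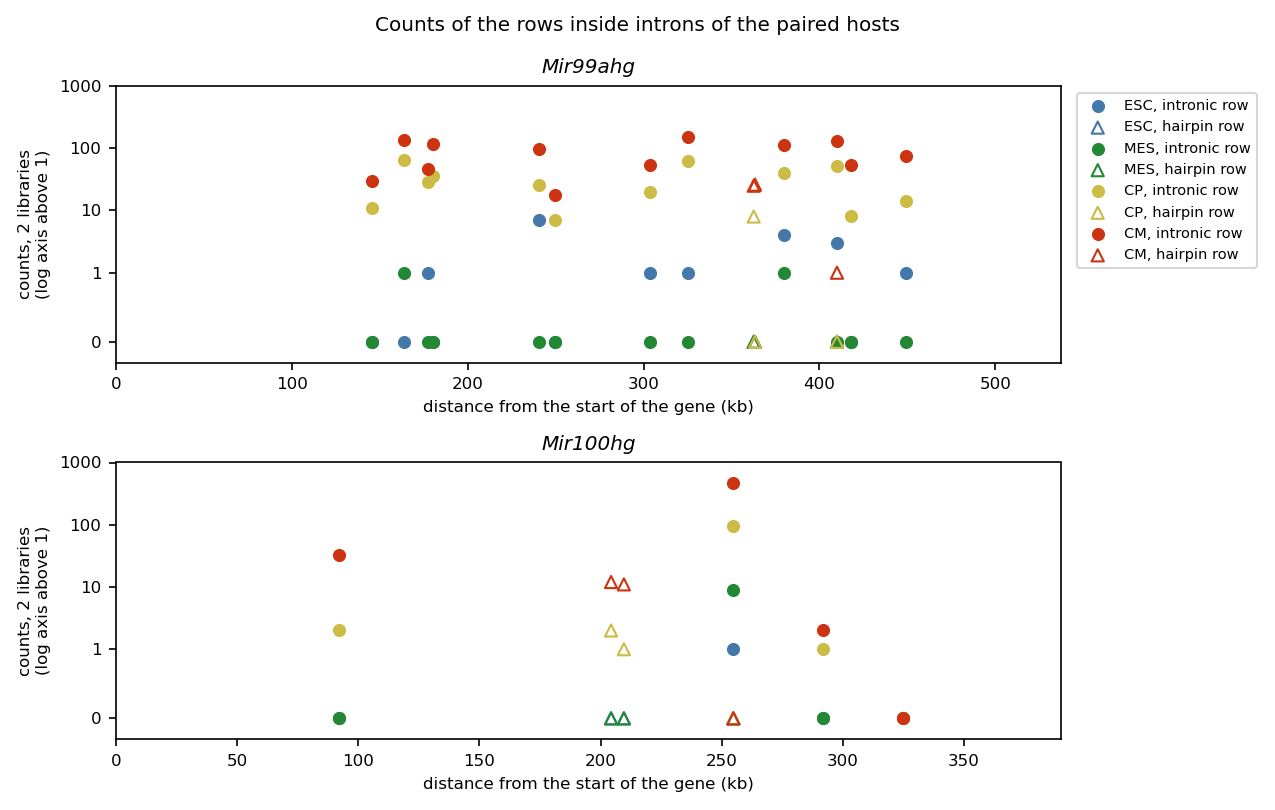
Counts of 2 libraries together (y axis, logarithmic above 1) for rows inside the introns of *Mir99ahg* and *Mir100hg* on the same strand, against the distance from the start of the host in kb (x axis). Filled points are intronic transcript rows and open triangles are hairpin rows, coloured by stage, and ESC points at 0 lie under MES points. In CM the rows inside *Mir99ahg* hold 18 to 152 counts and *Gm28119* inside *Mir100hg* holds 461.

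The hairpins themselves have rows too, 18 within the 7 hosts, which hold reads of precursor or unspliced transcript and not of the mature microRNA. Of these, 12 lie wholly inside another counted row, 11 in exons of their host and Mir125b-1 inside *Gm28119*, and all 12 were at 0 counts in every library. That includes the 6 hairpins of *Mir17hg*, whose host had 835 to 1802 counts. The counter leaves out reads that overlap more than 1 gene unless told otherwise, and the setting used is not given in the sources used here. These zeros are thus no measure of the hairpins. Of the other 6, 5 had counts, 86 in all and none in ESC or MES. Mir99a had 1 and 7 counts at CP and 16 and 9 at CM. Mirlet7c-1 had 0 counts at CP and 13 and 13 at CM, and Mir100 had 2 and 0 at CP and 9 and 3 at CM.

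*Mir17hg*, the host of the miR-17-92 cluster, was the highest of the 7 at ESC, MES and CP. It was at 91.7 and 89.3 TPM at ESC, 95.7 and 105 at MES, 60.8 and 76.9 at CP and 52.5 and 53.0 at CM. ESC and MES lay close together, and both CP libraries and then both CM libraries lay lower. From ESC to MES the log2 fold change was -0.06 (standard error 0.11, edgeR, adjusted p = 0.656). From MES to CP it was -0.70 (edgeR, adjusted p = 0.00108) and from CP to CM -0.45 (edgeR, adjusted p = 0.0164), and neither passed the fold threshold. It was 2.32-fold lower in CM than in ESC (log2 fold change -1.22, standard error 0.11, edgeR, adjusted p = 6.75e-06). Scaled by library totals alone, that value was -0.997 and just missed the fold threshold.

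Known regulators of the miR-17-92 host also fell, at different steps. *Myc* was at 46.9 and 47.6 TPM at ESC, 106 and 99.8 at MES, 30.7 and 30.1 at CP and 19.9 and 27.2 at CM, and fell 3.78-fold from MES to CP (edgeR, adjusted p = 1.02e-05). *Mycn* was 2.68-fold lower, *E2f1* 2.05-fold lower and *E2f2* 3.70-fold lower in CM than in ESC. *E2f1* missed the fold threshold without ESC replicate 2 (log2 fold change -0.98) and with library totals alone (-0.82). *E2f3* was not called in any step or from ESC to CM. *Mcm7*, a replication gene that holds the paralogous miR-106b, miR-93 and miR-25 hairpins, fell from 441 and 433 TPM in ESC to 122 and 140 at CM, 4.54-fold (edgeR, adjusted p = 2.88e-08). Of 10 proliferation genes, 0 were called higher and 9 lower in CM than in ESC, where 29.8% and 21.8% of all genes were. Their median log2 fold change was -1.59 against 0.11 over all genes tested. The part of cell division in the level of *Mir17hg* was not tested.

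*Mir22hg* moved the other way. It was at 15.8 and 16.8 TPM at ESC, 19.6 and 20.6 at MES, 28.3 and 36.1 at CP and 41.8 and 50.2 at CM. The libraries kept this order without overlap, yet the single steps were small, with log2 fold changes of 0.09 into MES, 0.52 into CP and 0.44 into CM (edgeR, adjusted p = 0.651, 0.0259 and 0.0595). Over the whole course it rose 2.07-fold (log2 fold change 1.05, standard error 0.15, edgeR, adjusted p = 0.000180), close to the threshold. From MES to CM the log2 fold change was 0.96, below the threshold, and 1.10, above it, when scaled by library totals alone. *Tlcd2*, a protein-coding gene that overlaps *Mir22hg* on the same strand, had 33.5 TPM in replicate 1 of CM against 16.5 TPM in replicate 2. Reads in the shared bases cannot be assigned to either gene. Of the neighbours, *Wdr81* was not called in any comparison and *Prpf8*, a core splicing factor, was 2.48-fold lower in CM than in ESC.

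In TPM, *Mir17hg* stood at 5.80 and 5.31 times *Mir22hg* at ESC, 4.88 and 5.12 times at MES, 2.14 and 2.13 times at CP and 1.26 and 1.06 times at CM. Of the summed TPM of the 7 hosts, *Mir17hg* made 79.3% ± 0.489 (SD, n = 2) at ESC and 25.3% ± 1.33 at CM. *Dnm3os* made 0.0607% ± 0.00215 at ESC, 8.30% ± 2.09 at CP and 35.9% ± 0.180 at CM. The sum itself was 114 ± 1.38 TPM at ESC, 121 ± 7.24 at MES, 119 ± 17.1 at CP and 209 ± 12.5 at CM. If reads that overlap another counted row were left out, hosts with exonic hairpins or overlapping genes read too low for their length. How far this moves the ratios and shares between hosts was not tested.

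**Figure D4:**
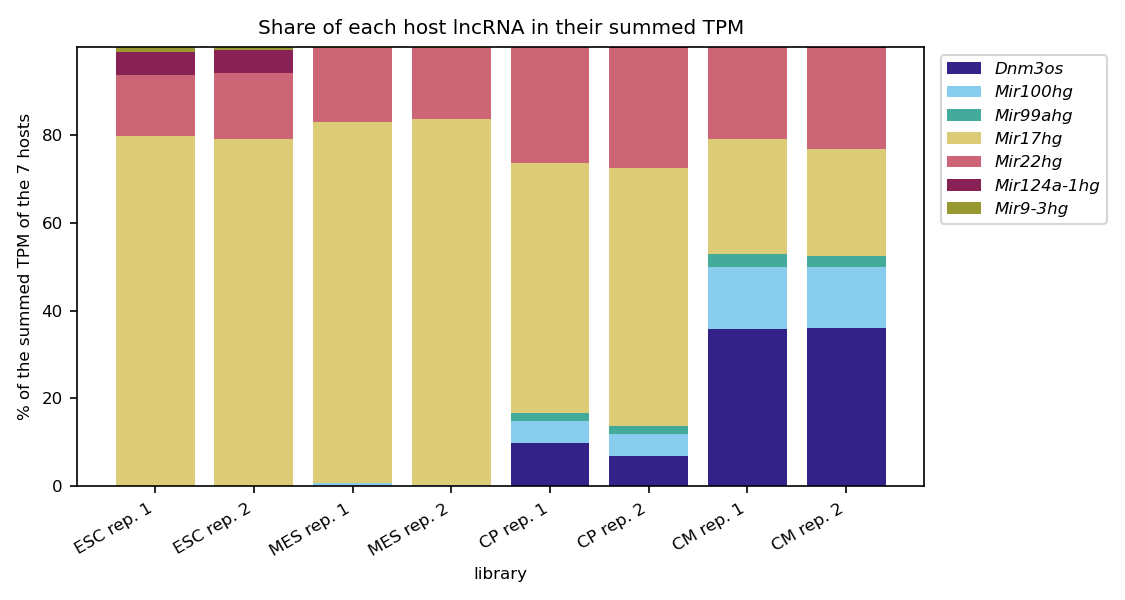
Share of each host in the summed TPM of the 7 hosts (y axis, percent) in each of the 8 libraries (x axis). *Mir17hg* makes 79.7% and 79.0% in the ESC libraries, and in the CM libraries *Dnm3os* makes 35.8% and 36.1%.

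*Mir124a-1hg* was nearly confined to ESC. Its counts were 162 and 152 at ESC, 0 and 1 at MES, 0 and 2 at CP and 0 and 3 at CM. Its levels in ESC were 6.07 and 5.88 TPM, and it was at or under 0.140 TPM in each later library, with no overlap between ESC and the rest. By counts per library total it was 299.9-fold lower in MES than in ESC (95% counting interval 53.4 to 11883, edgeR, adjusted p = 1.57e-05) and 105-fold lower in CM (35.5 to 510). Its later values are too few to order. Replicate 1 had 0 counts and replicate 2 had 1 to 3 at every later stage. The counting interval covers counting error only.

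A second host of miR-124, *Mir124-2hg*, went in the opposite direction. It had 3 and 2 counts at ESC, 4 and 8 at MES, 13 and 8 at CP and 21 and 20 at CM. In CM it was 6.78-fold higher than in ESC (edgeR, adjusted p = 0.00183), at 0.706 and 0.747 TPM. The levels of the hosts thus crossed, with *Mir124a-1hg* higher in both ESC libraries and *Mir124-2hg* higher in both CM libraries, the latter at under 1 TPM.

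*Mir9-3hg* had 32 and 21 counts at ESC, 4 and 4 at MES, 0 and 2 at CP and 1 and 4 at CM. Its levels in ESC were 1.32 and 0.895 TPM, above each later library, of which the highest was at 0.206 TPM. It was 6.54-fold lower in MES than in ESC (log2 fold change -2.71, standard error 0.64, edgeR, adjusted p = 0.00478), a call lost without ESC replicate 1 (log2 -2.39, edgeR, adjusted p = 0.0659). In CM it was 11.7-fold lower than in ESC (edgeR, adjusted p = 0.00104). No difference between the later stages was detectable at this depth. The host of a further miR-9 hairpin, *C130071C03Rik*, had 58 and 57 counts at ESC, 1 and 1 at MES, 2 and 2 at CP and 9 and 12 at CM. It was 54.9-fold lower in MES than in ESC by counts per library total (95% counting interval 14.9 to 459) and, unlike *Mir9-3hg*, was called higher from CP to CM (4.73-fold, edgeR, adjusted p = 0.0161). That last call was lost without CP replicate 1, CP replicate 2 or CM replicate 2 (edgeR, adjusted p = 0.0981, 0.0936 and 0.0595) and with DESeq2 (0.106).

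The summed level of 10 neural markers was also highest at ESC, at 214 to 215 TPM against 30.6 to 119 later. The markers were not all highest at ESC. *Tubb3*, a large part of the ESC sum at 73.5 and 73.3 TPM, was at 77.7 and 109 TPM at CP, where it made most of the sum. Of 8 neural markers that were tested, 0 were called higher and 6 lower in MES than in ESC. Over all genes, 19.4% were called higher and 16% lower at that step. *Sox1*, a factor of neural progenitors, was at 19.7 and 17.9 TPM at ESC and 0.0434 and 0.129 at MES, and *Neurod1*, a factor of neurons, at 28.2 and 29.8 TPM at ESC and 0.0768 and 0.305 at MES. *Neurog1*, another factor of neural progenitors, was low throughout, at 0 to 0.666 TPM. The part of such cells in the ESC level of *Mir124a-1hg* and *Mir9-3hg* was not tested. *Rest*, a repressor known to act on the miR-124 and miR-9 genes, was at 363 and 366 TPM at ESC and 95.6 and 108 at MES, 4.15-fold lower (edgeR, adjusted p = 7.54e-08), so it fell over the same step as these hosts.

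The genes beside the hosts gave mixed values. Beside *Mir100hg*, *Ubash3b* was 8.43-fold higher and *Sorl1* 2.87-fold lower in MES than in ESC. Beside *Mir99ahg*, *Usp25* and *Cxadr* were both called higher in MES than in ESC, while the host was at 0 counts in MES. Beside *Mir124a-1hg*, *Kif13b* fell 2.60-fold over that step and *Msra* was not called. Beside *Mir17hg*, neither *Tpm3-rs7* nor *Gpc5* was called at that step. Beside *Mir9-3hg*, *Polg*, the mitochondrial DNA polymerase, rose 3.84-fold as the host fell, and *Rhcg* was not tested.

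The genes whose log2 counts, scaled to the library total, followed a host most closely over the 8 libraries were *Lmna*, *Golga2* and *Fyco1* for *Dnm3os*, and *Abhd8*, *Nfia* and *Plin2* for *Mir100hg*, with Pearson's r of 0.995 to 0.997. For *Mir99ahg* they were *Islr* (r = 0.997), *Tmem175* and *Ptger3*, and *Islr*, a secreted protein of mesenchyme, also had 0 counts in both MES libraries. For *Mir17hg* they were *Rpp30*, *Trim36* and *Ccdc12*, and for *Mir22hg* *Cx3cr1*, *Slc17a5* and *Rab11fip5*. For *Mir124a-1hg* the closest was *Nr0b1* (r = 0.995), a gene of the pluripotency network at 149 and 149 TPM in ESC and at most 0.497 later, before *Sh3gl2* and *Brwd1*. For *Mir9-3hg* they were *Necab2*, *Grpel2* and *Gm22748*. The points are 4 stages with 2 libraries each and 12719 genes were compared, so high values are common and r is a description. On the scale of log2(TPM + 1), *Nr0b1* was the single one of these 21 genes still among the 3 nearest of its host.

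Among the genes that process microRNAs, *Lin28a*, *Lin28b* and *Trim71* were called lower at both later steps. Of 27 genes of microRNA processing and function, all tested, 3 were called higher and 1 lower from ESC to MES, 0 higher and 3 lower from MES to CP, and 0 higher and 3 lower from CP to CM. Over all genes 35.4%, 15.4% and 10.8% were called at these steps in either direction. From ESC to CM 4 were called higher and 7 lower, where 29.8% and 21.8% of all genes were, and the median log2 fold change was -0.29 against 0.11 over all genes tested. *Lin28a*, which binds let-7 precursors and blocks their processing, was at 376 and 402 TPM at ESC, 615 and 610 at MES, 240 and 224 at CP and 55.9 and 39.6 at CM. It fell 2.94-fold from MES to CP and 5.04-fold from CP to CM (edgeR, adjusted p = 0.000163 and 7.45e-05). *Lin28b*, its paralogue, fell 2.06-fold and 3.37-fold over the same steps, and *Trim71*, an RNA-binding let-7 target, 2.09-fold and 2.59-fold. From MES to CP these 2 genes lay at the fold threshold. Without MES replicate 1 neither was called (log2 fold changes -0.97 for *Lin28b* and -0.97 for *Trim71*), nor was *Lin28b* without CP replicate 2 (-0.99), and scaled by library totals alone both missed it (-0.98 and -0.999). *Mir100hg* and *Mir99ahg*, which hold let-7 hairpins, rose over these steps. From ESC to MES *Mir100hg* also rose, and *Lin28a* and *Lin28b* had log2 fold changes of 0.44 and 0.64. A link between *Lin28a* or *Lin28b* and the host levels was not tested. Other genes that act on let-7 precursors, *Tut4*, *Tut7* and *Dis3l2*, were not called at any step, and *Tut7* was called higher in CM than in ESC (log2 fold change 1.14).

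Of the core enzymes, *Drosha* fell from 187 and 197 TPM in ESC to 78.2 and 93.1 at CM, 3.05-fold (edgeR, adjusted p = 1.18e-07). *Dicer1* (log2 fold change -0.18) and *Dgcr8* (-0.29) were not called from ESC to CM. *Xpo5*, the exporter of hairpins, was 2.13-fold lower in CM and *Ran*, its partner, 3.11-fold lower. Among the Argonautes, *Ago1* was 2.16-fold lower and *Ago4* 5.37-fold higher in CM than in ESC, and *Ago2* was not called, at 115 to 191 TPM. Without CM replicate 1, *Xpo5* (log2 fold change -0.99) and *Ago1* (-0.998) just missed the fold threshold, and with library totals alone both missed it (-0.87 and -0.89). *Prkra*, a Dicer partner, rose 4.07-fold and *Zswim8*, which acts in the decay of microRNAs, 2.44-fold from ESC to MES.

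**Figure D5:**
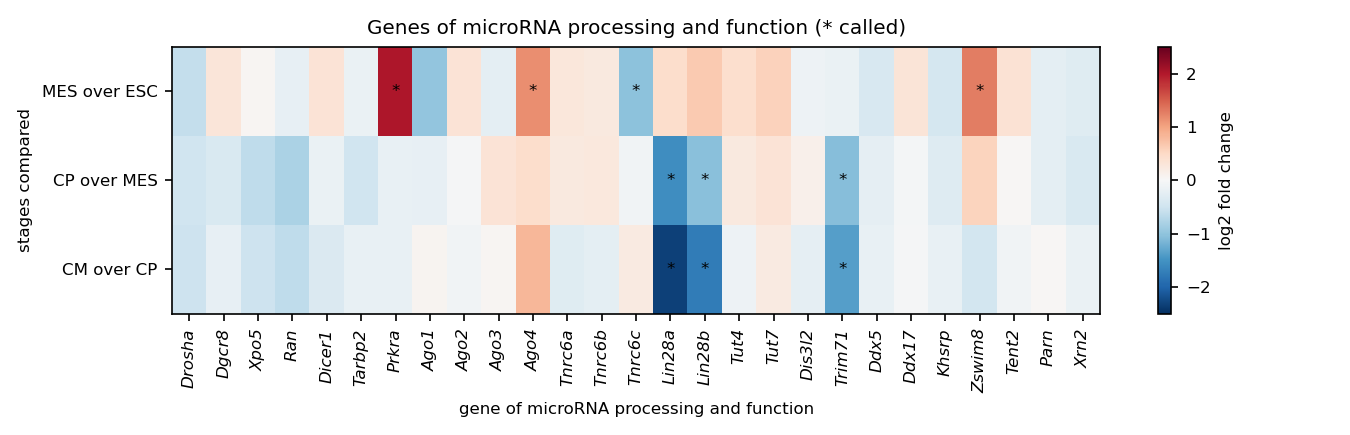
Colour gives the log2 fold change of 27 genes of microRNA processing and function (x axis) at 3 steps (y axis), with an asterisk where a gene was called. *Lin28a*, *Lin28b* and *Trim71* are called lower at both later steps, and *Prkra*, *Ago4* and *Zswim8* are called higher from ESC to MES.

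Reported targets of the microRNAs were counted as lists, with no measure of the microRNAs beside them. The lists are short, and 29.8% of all genes were called higher and 21.8% lower in CM than in ESC, so their counts are a description. Of 7 reported let-7 targets, 1 was called higher and 4 lower in CM than in ESC, with a median log2 fold change of -1.66. The 4 were *Lin28a*, *Lin28b*, *Trim71* and *Igf2bp1*, and the first 3 of these are also among the 27 genes above. *Hmga2*, another let-7 target and a chromatin protein, went the other way, with 17.1 and 16.7 TPM at ESC, 211 and 233 at MES and 92.2 and 173 at CM. Of 8 reported targets of miR-17-92, 5 were called higher and 1 lower in CM than in ESC. The 1 was *E2f1*, also named above as a regulator of the host, with a call that some settings lost. *Tgfbr2*, a receptor of TGF-beta, was 51.5-fold higher, and *Bcl2l11*, a gene of cell death, was not called. Of 3 reported miR-22 targets, 0 were called higher and 2 lower, *Sirt1* by 7.51-fold and *Tet2* by 2.91-fold. *Tet2* was at its lowest in MES, at 8.27 and 9.93 TPM, and rose 3.25-fold from MES to CM. Of 5 reported miR-124 targets, 3 were called higher and 1, *Ptbp1*, lower, a call lost with library totals alone (log2 fold change -0.96). Of 3 reported miR-9 targets that were tested, 1 was called higher and 1 lower. Of 5 reported targets of miR-99/100 and miR-125b, 1 was called higher and 3 lower. Of 3 reported targets of miR-199a and miR-214, 1 was called higher and 1, *Ezh2*, lower.

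The remaining comparisons skip a stage. In CP against ESC, 3 hosts were called higher and 2 lower, where 26.1% and 20.6% of all genes were (46.6% in all). In CM against MES, 3 were called higher and 1 lower, where 19.1% and 10.1% were (29.2% in all), and the 1 was *Mir17hg* (log2 fold change -1.15, edgeR, adjusted p = 2.54e-05). These comparisons share libraries with the steps above and are not independent of them.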

How the data were processed

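The authors deposited raw counts per gene and TPM for 8 rRNA-depleted, strand-specific libraries of 4 stages. The submitters' processing notes name Trim Galore 0.6.6, HISAT2 2.2.1, featureCounts 2.0.1, DESeq2 1.34.0 and the build GRCm38. TPM corrects for gene length and library total, whereas the deposited counts do not. Counts were tested with edgeR 4.0.16 (R 4.3.3, quasi-likelihood F-test, TMM scaling, filterByExpr by stage, all 8 libraries in a single model, Benjamini-Hochberg over 20071 genes). The standard error is the log2 fold change over the square root of F. The tests were tested on simulated data. Where a stage had 0 counts, a fold is a bound against 3 counts over its 2 libraries. With 1 to 3 counts, it is a ratio of counts per library total with an exact 95% conditional binomial interval, which covers counting error only. Alternatives were DESeq2 1.42.0, other scalings, no filter, a replicate block, only the stages compared, and each library left out. Positions are from GENCODE M21 (GRCm38), matched by gene ID for 7 of 7 hosts, and sequences from RefSeq. Python 3.11.15, pandas 2.3.3, scipy 1.17.1 and matplotlib 3.10.9 were used.

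The hosts, gene lists and tests were chosen with earlier results of these data known. Named genes are the 7 hosts, the called members of the lists on microRNA processing, regulators, other hosts and reported targets, up to 4 genes of each marker list, nearest protein-coding neighbours and overlapping genes, hairpin rows, and for each host the 3 genes with the highest Pearson's r of log2 CPM (prior count 2) among genes with an average of at least 2. Library totals in place of TMM move the all-gene median of the log2 fold change by 0.22 from ESC to CM, 0.15 from ESC to CP and 0.14 from MES to CM, and by under 0.1 in the other comparisons. TMM scaling is used throughout. From the gene lists, 1 gene (Mir3120) had no row.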

Additional observations from a re-analysis of the deposited data

How the results depend on the processing

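Counts of called hosts kept their direction and stayed within 1.5 times under DESeq2, both other scalings, no filter, the replicate block, only the stages compared, and each library left out. With a library left out they ranged from 3 to 4 for MES against ESC, and stayed at 3 for CP against MES and CM against CP, 5 for CP against ESC, 7 for CM against ESC and 4 for CM against MES. Called genes of microRNA processing from MES to CP were 3, 1 with library totals alone, and 1 to 3 with a library left out (1 without MES replicate 1). For the other comparisons their counts ranged from 3 to 4, 3 to 3, 8 to 9, 10 to 12 and 6 to 7, in the order MES against ESC, CM against CP, CP against ESC, CM against ESC and CM against MES.

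Values that changed sign had not been called. They were *Dnm3os* from ESC to MES (log2 -0.0464 without MES replicate 1, 1.21 without MES replicate 2), *Mir17hg* from ESC to MES (0.0241 with library totals alone), *Mir9-3hg* from CP to CM (-0.0644 without CM replicate 2, 4.26 without CP replicate 2) and *Mir124a-1hg* in the later stages. With a library left out, the last ranged from -2.38 (without CP replicate 2) to 3.14 for CP against MES, where it was -0.0570 without MES replicate 1. It ranged from -3.12 (without CM replicate 2) to 3.57 for CM against CP, where it was -0.46 without CP replicate 1, and from -2.37 (without CM replicate 2) to 3.59 for CM against MES. The cause was not tested.

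Libraries with the same replicate number did not deviate together (Pearson's r 0.01 to 0.07 over 20071 genes), so the numbers do not pair the samples. With the replicate as a block, 4 hosts were called for MES against ESC, 3 for CP against MES and 7 for CM against ESC. Fitted on only the stages compared, hosts that the filter then removed had no value. Depth limits the hosts with under 10 counts in a stage.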

Other observations

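Other genes of the tables that carry microRNAs were also measured. *Mir181a-1hg*, the host of a miR-181 pair, had 1 and 0 counts at ESC, 8 and 9 at MES, 28 and 27 at CP and 70 and 93 at CM. *Mir205hg* had 5 and 3 counts at ESC, 10 and 9 at MES, 10 and 11 at CP and 31 and 50 at CM. *Mir142hg*, the host of a microRNA of blood cells, had 24 and 22 counts at ESC and 8 and 7 at MES. At CP it had 34 and 38 counts and at CM 26 and 27. On these few counts it fell 3.07-fold from ESC to MES and rose 4.36-fold from MES to CP (edgeR, adjusted p = 0.00464 and 0.00174). The blood markers did not follow it at each step, with sums of 1.43 to 2.34 TPM at ESC, 233 to 395 at MES, 3983 to 4017 at CP and 40.5 to 45.4 at CM, where *Mir142hg* was at 19.6 and 22.5 TPM. *Mir133a-1hg*, a host of a muscle microRNA, had 0 counts in ESC and MES, 7 and 13 at CP and 8 and 7 at CM. *H19*, which carries miR-675, was at 5.85 and 7.56 TPM at ESC and 2565 and 3294 at CM. *Dleu2*, the host of miR-15a and miR-16, rose 2.36-fold from ESC to MES.

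Among 29 protein-coding genes listed as hosts, 12 were called higher and 4 lower in CM than in ESC, where 29.8% and 21.8% of all genes were. The strand of their hairpins was not checked. *Myh6*, which carries miR-208a, was at 0.343 and 0.527 TPM at MES and 80.5 and 120 at CP. *Mest*, which carries miR-335, rose 8.06-fold from ESC to MES, to 1777 and 1554 TPM. The hairpin row Mir99b, of the third cluster with a miR-99, a let-7 and a miR-125, had 18 and 8 counts at ESC, 6 and 4 at MES, 26 and 29 at CP and 47 and 56 at CM, and was 3.39-fold higher in CM than in ESC (edgeR, adjusted p = 0.00306).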
